A study of Bos taurus with 147 samples.

Results

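The genes described here are 4 of the genes of sarcoplasmic reticulum calcium handling that the array names. They are the calcium pumps ATP2A1 (SERCA1) and ATP2A2 (SERCA2), the pump regulator PLN (phospholamban) and the calcium store protein CASQ1 (calsequestrin 1). Their array elements were taken by name, as those annotated with 1 gene symbol equal to a member. The choice of these genes was made with earlier results of these data known. They are 4 of the 976 genes that could be named in this way, and 68 of the 21168 elements of the array carry them. The series holds 147 two-colour cDNA arrays of bovine tissues and cells, most of them muscle, of which 25 fetal and newborn arrays and 20 arrays of older crossbred cattle were used here.

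The sarcoplasmic reticulum is the calcium store of the muscle fibre. A fibre contracts when the store releases calcium into the cytoplasm and relaxes when SERCA pumps return it. ATP2A1 encodes the pump of fast fibres and ATP2A2 the pump of slow fibres and heart, and ATP2A2 also yields a form found in nearly every cell type. PLN is a small membrane protein that restrains the pump until it is phosphorylated, and in skeletal muscle it is known mainly from slow fibres. CASQ1 binds calcium inside the terminal cisternae and is the main calsequestrin of fast fibres.

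All fetal and newborn samples were longissimus muscle, the long muscle of the back, of calves of Hereford dams. The sires were Piedmontese, all homozygous for the GDF8 (myostatin) missense mutation, or Wagyu, none of which carried it. Fetuses were sampled at d 60, at d 135 and at d 195 of gestation and calves within a day of birth, which gives 8 groups of sire breed and stage. All newborn calves were female, whereas the d 195 fetuses of each breed were of both sexes, so that step also holds a difference of sex. The sire differed with the group: each breed's d 60 fetuses came from 1 bull, the Wagyu d 135 fetuses from that same Wagyu bull, and the Piedmontese d 195 fetuses, twins among them, from 1 Piedmontese bull. Muscle at d 60 was dissected by position, with skin that was hard to remove, and fetal RNA was linearly amplified before labelling. The study reports that amplification may have biased a sample of this youngest stage. For these reasons it focuses its discussion on the later stages. Every change from d 60 given below uses that stage as its reference, and so do the breed differences in those changes. The 20 further arrays compared longissimus muscle of Piedmontese x Hereford and Wagyu x Hereford cattle at 3 times called T1, T2 and T3, whose ages the labels do not state. Labels tie no animal to an array number. Each fetal or newborn group was on more arrays than it had animals, so some animals were on more than 1 array. The p-values here thus measure the spread between arrays.

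Each value is the log2 ratio of 2 RNA samples on 1 array, centred on the array's median and averaged over a gene's elements, with ratios at the table's ceiling left out. The 25 arrays formed a ring of 8 pairs of groups with 3 or 4 arrays a pair, all labelled in the same sense round the ring. The Piedmontese stage arrays carried the earlier stage in Cy5 and the Wagyu stage arrays the later one, so a dye effect of a gene cancels from the mean of the breeds and stays in values of 1 breed. A linear model (limma) with 8 groups and a dye term was fitted to all 16659 features, and every adjusted p below is its Benjamini-Hochberg value over all features of that comparison, with 0.05 as the threshold. The model uses as many terms as the ring has pairs, so that whether the ring closes cannot be checked apart from the dye term. The direction of the ratios is likely but not certain, since it rests on the dyes in the labels and on the drawn design of the loop. Fetal arrays held 19404 to 20771 usable values and the others 20794 to 20946, and the number of arrays limits the precision.

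The 4 genes rest on unequal numbers of clones. ATP2A1 had 38 elements from 17 clones and CASQ1 26 elements from 9 clones, whereas ATP2A2 and PLN each had 2 elements from 1 clone. The 2 elements of a single clone agreed closely, with Pearson's r of 0.991 for ATP2A2 and 0.996 for PLN over the 25 fetal arrays, which is a repeat of the spot and not of the clone. Across different clones the median r was 0.745 for ATP2A1 and 0.746 for CASQ1. The range was wide, from -0.444 to 0.97 for ATP2A1 and from -0.454 to 0.978 for CASQ1, so some elements of 1 gene ran opposite to each other. Whether a pump clone also bound RNA of the other pump was not tested.

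Expression of all 4 genes rose from d 60 to birth on the mean of the sire breeds. CASQ1 increased 4.36-fold, PLN 3.97-fold, ATP2A1 3.56-fold and ATP2A2 2.59-fold. Among all features 48.2% passed in this comparison, 22.6% in the upward direction, so a rise of 1 gene was common in these data. The genes differed in when the rise came. Averaged over their elements, ATP2A1 and CASQ1 increased in each of the 3 intervals. For ATP2A2 and PLN only the rise from d 195 to birth passed. The plot of fitted values by stage shows both shapes.

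**Figure D1:**
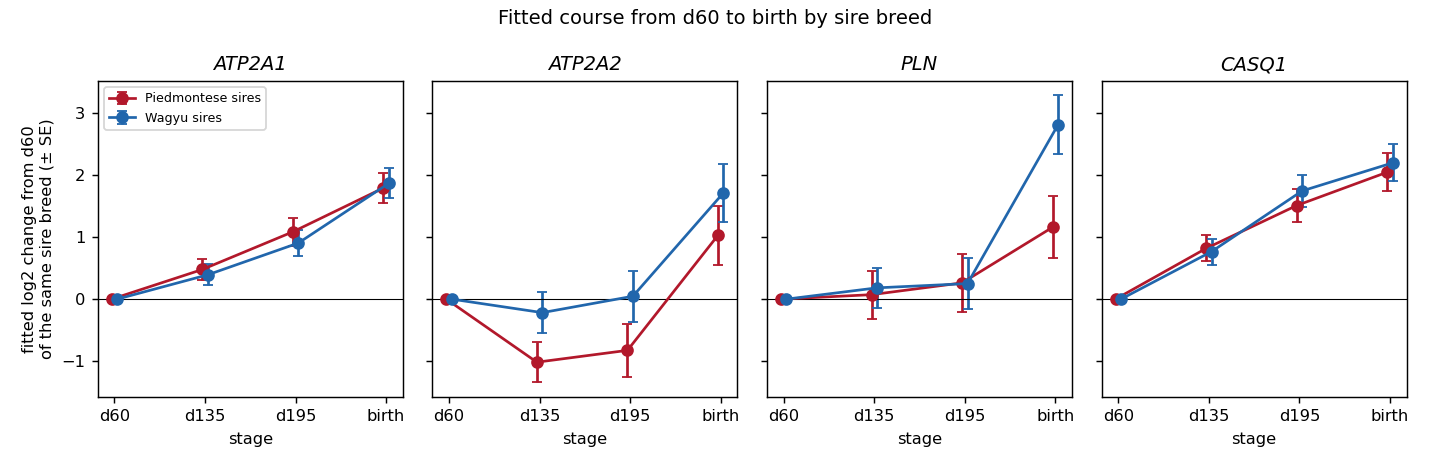
Fitted log2 change from d 60 of the same sire breed (y axis, ± SE) at 4 stages (x axis) for each gene, with Piedmontese sires in red and Wagyu sires in blue. Fitted values of ATP2A1 and CASQ1 climb at every stage in both breeds, though not every step passed the threshold within a breed. Those of ATP2A2 and PLN climb at birth, and PLN at birth is at 1.16 for Piedmontese and 2.82 for Wagyu sires.

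ATP2A1, the fast fibre pump, gave ratios of the same sign on all arrays that compared stages. For Piedmontese sires the 3 arrays of d 135 over d 60 read 0.60, 0.20 and 0.42, those of d 195 over d 135 read 0.34, 0.66 and 0.62, and those of birth over d 195 read 0.99, 0.23 and 0.70. For Wagyu sires the 3 arrays of d 135 over d 60 read 0.36, 0.57 and 0.46, the 4 arrays of d 195 over d 135 read 0.80, 0.47, 0.46 and 0.59, and the 3 arrays of birth over d 195 read 1.59, 1.03 and 0.48. The breeds overlapped in every interval. The fitted rise from d 60 to birth was 1.83 on the log2 scale (SE 0.22, adjusted p = 5.48e-07), with 1.79 for Piedmontese and 1.87 for Wagyu sires, comparisons in which 44.9% of all features passed in each breed. It was made of steps of 0.44 (adjusted p = 0.0136), 0.56 (adjusted p = 0.00313) and 0.84 (adjusted p = 1.67e-05). The first step missed the threshold without array number 2 or 3, without the Piedmontese array 1 of d 135 over d 60 and without centring (adjusted p from 0.0507 to 0.0941), and the second step missed it without array number 2 (adjusted p = 0.057). In Wagyu-sired fetuses by themselves the first step was 0.39 and did not pass (adjusted p = 0.153).

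ATP2A2, the slow fibre and cardiac pump, took another course. Piedmontese arrays of d 135 over d 60 read -0.75, -0.50 and -1.10, those of d 195 over d 135 read 0.58, 0.68 and 0.01, and those of birth over d 195 read 1.84, 2.59 and 1.85. Wagyu arrays read -0.44, -0.45 and -0.46 for the first interval, -0.97, 0.23, 0.55 and 0.32 for the second, and 2.03, 2.35 and -0.06 for the last. All 6 arrays of the first interval were thus below 0, and 5 of the 6 arrays of the last interval were at or above 1.84 with 1 Wagyu array near 0. Of the fitted steps only the last passed, at 1.76 or 3.40-fold (SE 0.25, adjusted p = 5.04e-06), beside -0.62 (adjusted p = 0.0637) and 0.23 (adjusted p = 0.557). The first step passed with quantile normalisation (-0.68, adjusted p = 0.0439), with array weights (adjusted p = 0.0124), in robust regression (adjusted p = 0.00123) and in 4 of 29 fits with arrays left out (adjusted p from 0.0155 to 0.0476). In Piedmontese-sired fetuses by themselves ATP2A2 fell from d 60 to d 135, with a log2 ratio of -1.02 (adjusted p = 0.0245, where 26.7% of all features passed), a call that was lost without centring and in 6 of 29 fits with arrays left out. The Wagyu value was -0.22 (adjusted p = 0.735), and the difference between the breeds in that step did not pass (-0.80, adjusted p = 0.559).

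The rise of ATP2A2 from d 60 to birth, 1.37 on the log2 scale (SE 0.42, adjusted p = 0.00997), was the least firm of the 4. It stayed above 0 in all 29 fits with arrays left out, from 0.85 to 1.91, but missed the threshold without array number 2 (adjusted p = 0.241) and with arrays brought to the same spread (0.92, adjusted p = 0.0688) or quantile normalised (0.93, adjusted p = 0.0814). It was 1.03 for Piedmontese (adjusted p = 0.0834) and 1.72 for Wagyu sires (adjusted p = 0.00484), with a difference of -0.68 that did not pass (SE 0.43, adjusted p = 0.295). These breed values turn on the dye term, which was -0.23 for ATP2A2 (SE 0.12): with the arrays of 1 breed and no dye term they were 1.73 (adjusted p = 0.00556) and 1.02 (adjusted p = 0.266), in the opposite order.

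**Figure D2:**
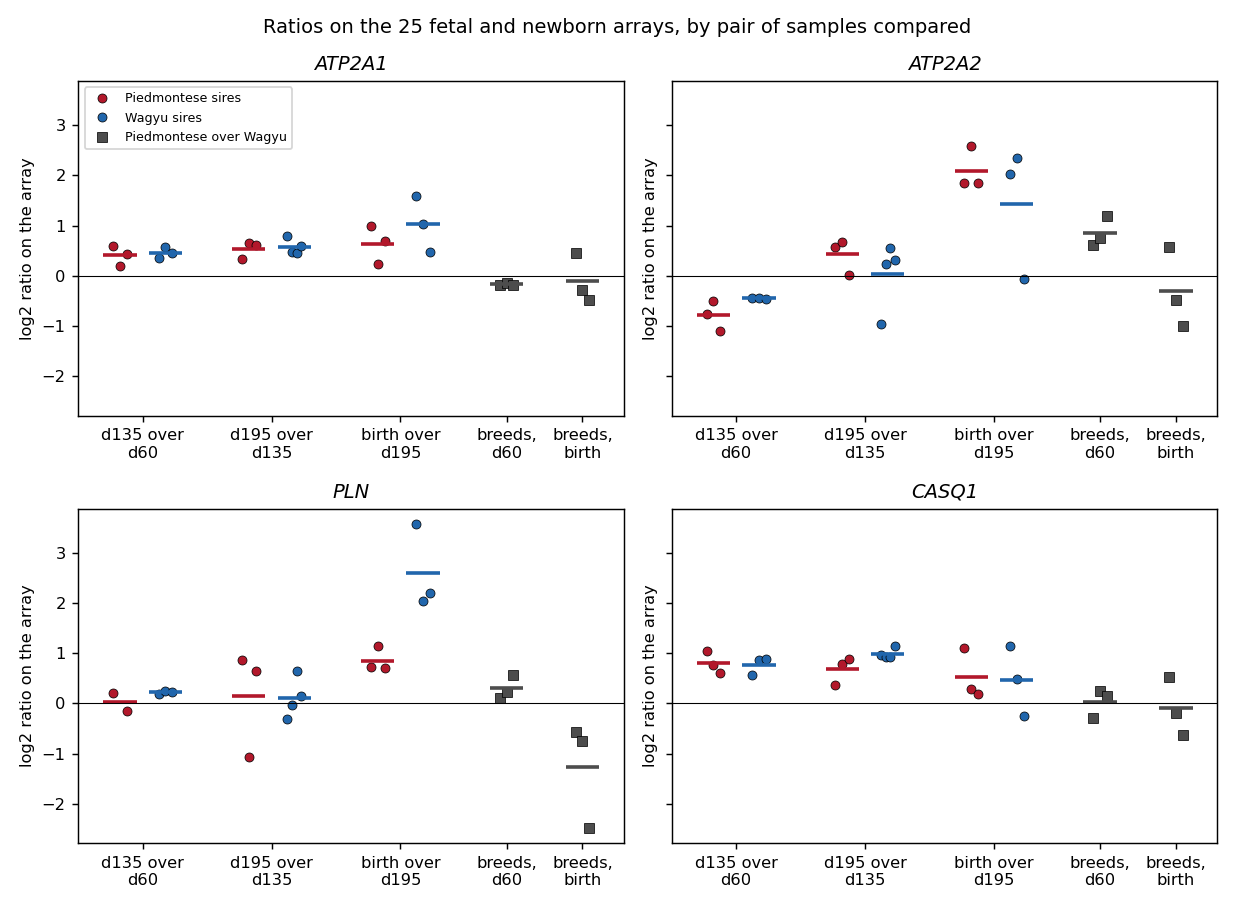
Centred log2 ratio (y axis) of each of the 25 fetal and newborn arrays for each gene, turned so that later stages are over earlier ones and Piedmontese over Wagyu, with short bars at the mean of the arrays of a pair; the dye term is not removed. For PLN the 3 Wagyu arrays of birth over d 195 lie at 2.05 and above and the 3 Piedmontese arrays at 1.15 and below.

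PLN, the brake on the SERCA pump, passed upward only in the last interval. Piedmontese arrays read 0.20 and -0.14 for d 135 over d 60, where the third array had no usable value and the fit used 2, then 0.86, -1.06 and 0.65 for d 195 over d 135, and 0.72, 1.15 and 0.70 for birth over d 195. Wagyu arrays read 0.19, 0.24 and 0.24, then -0.31, -0.03, 0.64 and 0.14, and then 3.58, 2.05 and 2.19. In the last interval all 6 arrays were above 0, and the 3 Wagyu arrays lay above the 3 Piedmontese arrays without overlap. The fitted steps on the mean of the breeds were 0.13 (adjusted p = 0.765), 0.13 (adjusted p = 0.757) and 1.73 or 3.32-fold (adjusted p = 7.54e-06). From d 60 to birth PLN increased by 1.99 on the log2 scale (SE 0.44, adjusted p = 0.000778), a call kept in all 29 fits with arrays left out.

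The rise of PLN differed between the sire breeds. It was 2.82 on the log2 scale, or 7.04-fold, in Wagyu-sired muscle (SE 0.47, adjusted p = 6.21e-05) and 1.16, or 2.24-fold, in Piedmontese-sired muscle (SE 0.50, adjusted p = 0.064). The test of the difference gave -1.66 (SE 0.43, 95% interval -2.55 to -0.76, adjusted p = 0.0225). In this comparison 13.2% of all features passed, 7.94% in the same direction, and PLN was the only one of the 4 genes to pass. Both PLN elements passed by themselves, at -1.61 and -1.70, but they are spots of 1 clone. The direct arrays of the breeds lay on the same side: the 3 arrays of Piedmontese over Wagyu read 0.10, 0.24 and 0.57 at d 60 and -0.57, -0.75 and -2.49 at birth, again without overlap.

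The size of this difference depended on the array that read -2.49. Without it the difference was -1.20 (adjusted p = 0.106), and without array number 3 altogether it was -1.15 (adjusted p = 0.219). It kept its sign in all 29 fits with arrays left out, from -2.02 to -1.15, and missed the threshold in 5 of them, 2 others of which left out a d 60 breed array (adjusted p = 0.0525 and 0.0742) and 1 left out array number 2 (adjusted p = 0.107). Between d 195 and birth alone, PLN rose by 0.90 in Piedmontese-sired (adjusted p = 0.0344) and by 2.57 in Wagyu-sired muscle (adjusted p = 3.13e-06), where 39.7% and 44.6% of features passed, and that difference of -1.67 did not pass (adjusted p = 0.128), in a comparison where 0% of features passed.

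CASQ1, the calcium binding protein of the store, rose early and steadily. Piedmontese arrays read 1.04, 0.78 and 0.61 for d 135 over d 60, then 0.37, 0.79 and 0.88 for d 195 over d 135, and 1.11, 0.30 and 0.18 for birth over d 195. Wagyu arrays read 0.57, 0.87 and 0.89, then 0.96, 0.93, 0.93 and 1.14, and then 1.15, 0.50 and -0.25. Only the Wagyu array at -0.25 was below 0, and the breeds overlapped in the first and last intervals while the Wagyu arrays were all higher in the middle one. The fitted rise from d 60 to birth was 2.13 on the log2 scale (SE 0.27, adjusted p = 1.22e-06), with 2.05 for Piedmontese and 2.20 for Wagyu sires. Its steps were 0.79 (adjusted p = 0.000686), 0.84 (adjusted p = 0.000582) and 0.50 (adjusted p = 0.0124). The last step was the weakest: it missed the threshold in 4 of 29 fits with arrays left out, and was 0.18 (adjusted p = 0.284) without array number 1. It also missed the threshold in 3 of 11 fits with other processing (adjusted p up to 0.109), and 7 of 22 tested CASQ1 elements passed upward in it. Within the breeds, the second step did not pass for Piedmontese sires (0.69, adjusted p = 0.0613). Nor did the last step for Wagyu sires (0.45, adjusted p = 0.0848). CASQ1 is also on a list of rising genes that the study chose on these same samples, so its direction here is no independent evidence.

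Read by interval, 2 of the 4 genes, ATP2A1 and CASQ1, rose from d 60 to d 135, where 31% of all features passed and 14% did so upward. The same 2 genes rose from d 135 to d 195, where 16.8% passed and 10.6% upward. All 4 rose from d 195 to birth, where 52.5% passed and 26.7% upward. The share of members that rose was above the upward background in each interval, on 4 genes, which is no test. The members were chosen with earlier results of these data known. ATP2A1 and CASQ1 are also means over many elements, whereas most features are single elements.

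Because the genes lie on the same arrays, the difference of their changes could be tested within arrays for the 6 pairs of genes, with p-values adjusted over all features and these pairs. Over the whole span from d 60 to birth no pair passed, and the intervals were wide: ATP2A1 minus PLN was -0.16 (95% interval -1.04 to 0.72) and ATP2A2 minus CASQ1 was -0.75 (adjusted p = 0.0903). From d 60 to d 135 ATP2A2 fell behind both CASQ1, by -1.41 (adjusted p = 4.97e-05), and ATP2A1, where ATP2A1 minus ATP2A2 was 1.05 (adjusted p = 0.0016). From d 195 to birth the order turned: ATP2A1 minus ATP2A2 was -0.93 (adjusted p = 0.0022), ATP2A1 minus PLN was -0.90 (adjusted p = 0.00362), ATP2A2 minus CASQ1 was 1.27 (adjusted p = 4.07e-05) and PLN minus CASQ1 was 1.24 (adjusted p = 0.000154). ATP2A2 and PLN, the slow fibre pump and its regulator, differed by 0.03 in that interval on the mean of the breeds (95% interval -0.54 to 0.60), but the breeds lay on opposite sides. ATP2A2 minus PLN was 0.94 in Piedmontese-sired (adjusted p = 0.0457) and -0.88 in Wagyu-sired muscle (adjusted p = 0.0564), and the test of that difference did not pass (1.82, adjusted p = 0.133). The pair of ATP2A1 and CASQ1 was not alike either: CASQ1 gained more than ATP2A1 from d 60 to d 135 (ATP2A1 minus CASQ1 -0.36, adjusted p = 0.00697) and less from d 195 to birth (0.34, adjusted p = 0.00516). The breed difference in the change from d 60 to birth was larger downward for PLN than for ATP2A1 (ATP2A1 minus PLN 1.58, adjusted p = 0.0235) and than for CASQ1 (PLN minus CASQ1 -1.53, adjusted p = 0.0233), while ATP2A2 minus PLN, at 1.01, did not pass (adjusted p = 0.164).

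At single stages no member passed the threshold between the sire breeds. The 3 arrays of Piedmontese over Wagyu at d 60 read -0.18, -0.14 and -0.18 for ATP2A1, 0.60, 0.75 and 1.20 for ATP2A2, and -0.28, 0.25 and 0.14 for CASQ1. At birth they read 0.45, -0.29 and -0.48 for ATP2A1, 0.58, -0.48 and -1.0 for ATP2A2, and 0.53, -0.18 and -0.64 for CASQ1. For each pump the 3 arrays of d 60 thus had the same sign, whereas at birth 1 array pointed the other way, and for CASQ1 1 array did so at both stages. All arrays of d 60 carried Wagyu in Cy5 and those of birth Piedmontese, so these values hold any dye effect. With the fitted dye term removed, the d 60 arrays read 0.37, 0.52 and 0.96 for ATP2A2 and -0.11, -0.08 and -0.12 for ATP2A1. The dye term of ATP2A2 was -0.23 here but -0.74 on the arrays of older cattle. In limma 0 of 4 genes passed at any of the 4 stages, where, from the youngest to the oldest, 0.048%, 0%, 0% and 0.276% of all features did, and at an unadjusted p under 0.05 only PLN at birth would have been counted. PLN at birth was -1.31 (SE 0.33, adjusted p = 0.0693) and passed with array weights (-1.34, adjusted p = 0.0452) and in robust regression (-0.83, adjusted p = 0.000413). ATP2A2 at d 60 was 0.62 (SE 0.33, 95% interval -0.06 to 1.30, adjusted p = 0.469) and passed in robust regression (0.68, adjusted p = 0.0203), and ATP2A1 at birth was -0.18 (SE 0.17, 95% interval -0.53 to 0.18, adjusted p = 0.602). ATP2A2 at birth was -0.07 (adjusted p = 0.933). The study describes both pumps as relatively lower in Piedmontese-sired calves at birth, from another model with its own threshold.

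The elements of the larger genes spanned a wide range of values. For birth over d 60, 32 of the 38 ATP2A1 elements passed upward and none downward, from 0.08 to 3.39 with a median of 1.54. Of the 26 CASQ1 elements 22 had enough values, of which 20 passed upward and none downward, from -0.67 to 3.33 with a median of 2.15. Both ATP2A2 elements passed, at 1.36 and 1.38, as did both PLN elements, at 1.96 and 2.02. Elements of 1 gene share their RNA and are no replicates, and the spread shows that a fold change of ATP2A1 or CASQ1 is a mean over clones that did not give 1 value.

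**Figure D3:**
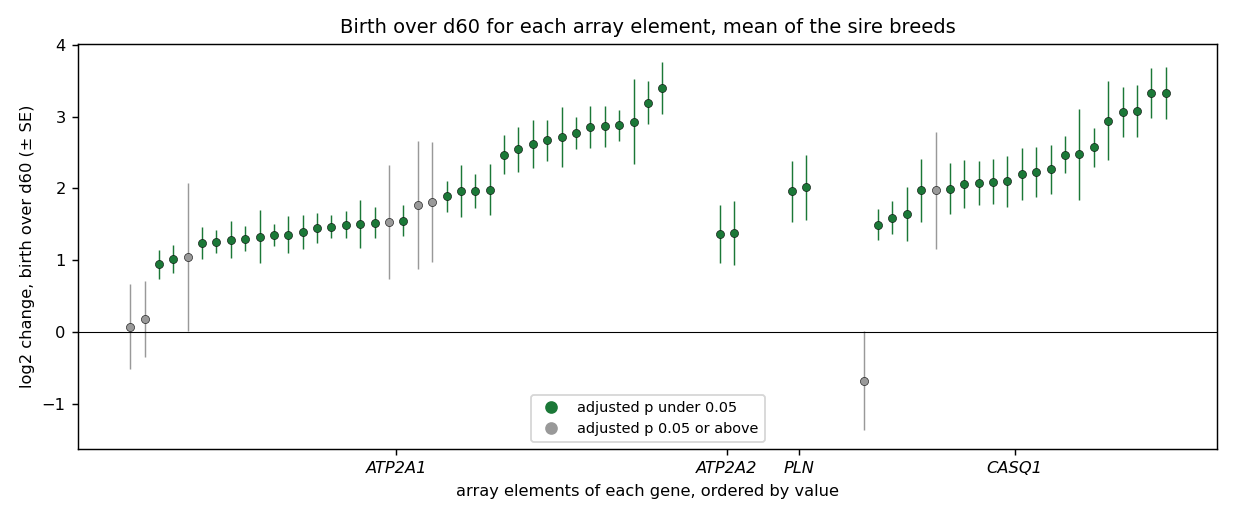
Log2 change from d 60 to birth, mean of the sire breeds (y axis, ± SE), for each array element of the 4 genes, ordered by value within the gene; green points passed the threshold and grey points did not. The 38 ATP2A1 elements run from 0.08 to 3.39, and 1 CASQ1 element lies at -0.67 apart from the rest.

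Of 54 other genes of the sarcoplasmic reticulum and triad that were listed, 10 were measured under 1 name. From d 60 to birth 3 of the 10 rose and none fell, where 22.6% of all features rose, so the share was near the background. The median was 0.36 against -0.07 over all features. JPH1 (junctophilin 1), which ties the reticulum to the transverse tubule, increased by 2.04 (SE 0.32, adjusted p = 1.78e-05). ASPH, whose gene also yields the junctional protein junctin, increased by 2.26 (SE 0.51, adjusted p = 0.00112), and TMEM38A, the TRIC-A counter-ion channel, by 1.25 (SE 0.27, adjusted p = 0.000543). JPH1 lay within the range of the 4 genes, ASPH above it and TMEM38A below it. The 7 that did not pass ran from -0.72 for MCU, the pore of the mitochondrial calcium uniporter, to 0.73 for STAC3, an adaptor of the voltage sensor.

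The timing of these genes differed as well. From d 60 to d 135, 5 of the 10 rose, where 14% of all features did: STAC3 by 1.04 (adjusted p = 0.00481), ASPH by 0.87 (adjusted p = 0.0345), TMEM38A by 0.85 (adjusted p = 0.00035), JPH1 by 0.60 (adjusted p = 0.0183) and SYPL2 (mitsugumin 29) by 0.53 (adjusted p = 0.0227). From d 195 to birth 4 of the 10 passed, a share below the 52.5% of all features. JPH1 and ASPH rose by 1.06 and 0.91, while CACNB1, the beta subunit of the voltage sensor channel, fell with a log2 ratio of -0.51 (adjusted p = 0.000198) and CALM3, a calmodulin gene, with one of -0.39 (adjusted p = 0.0147). From d 135 to d 195, where 16.8% of all features passed, limma passed 0 of 10, against 3 of 10 at an unadjusted p under 0.05. In the breed difference of the change from d 60 to birth PLN and 13.2% of all features passed. There 0 of 10 passed by limma and 0 at an unadjusted p under 0.05.

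**Figure D4:**
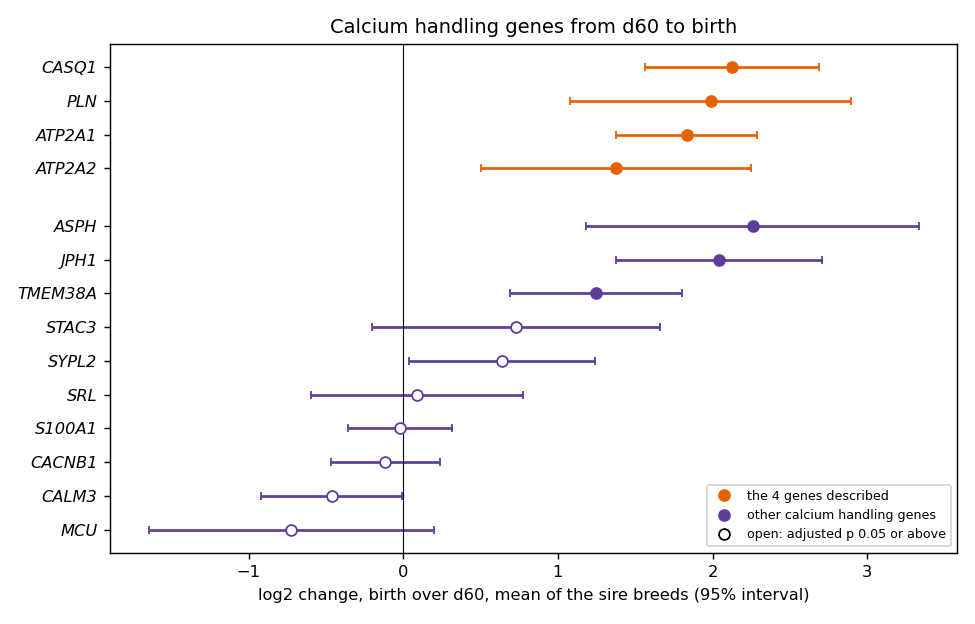
Log2 change from d 60 to birth, mean of the sire breeds, with 95% interval (x axis) for the 4 genes described (orange) and the 10 other measured calcium handling genes (purple); open points did not pass the threshold. JPH1 at 2.04 lies in the range of the 4 genes, ASPH at 2.26 above it and TMEM38A at 1.25 below it, and the other 7 lie between -0.72 and 0.73.

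Markers of muscle and of other cells moved in the same span, in which 48.2% of all features passed and 22.6% did so upward. Of 12 measured skeletal muscle markers 11 rose and 1, MYOG (myogenin, a factor of differentiating muscle cells), fell by 1.66, with a median of 2.47 for the list. All 6 measured fast fibre genes rose, with a median of 2.73, among them MYOZ1 at 3.42 and MYH1 at 3.17, and 6 of 7 slow fibre genes rose, with a median of 1.34, among them TNNT1 at 1.80 and CSRP3 at 2.75. All 10 measured fibroblast and matrix markers fell, with a median of -3.17, and their mean level went from 1.52 at d 60 to -2.12 at birth in Piedmontese-sired and from 1.23 to -1.61 in Wagyu-sired samples, relative to the mean of the groups. Of 9 adipocyte markers 2 rose and 2 fell, of 5 immune markers 2 rose and 1 fell, of 3 endothelial and mural markers 1 fell, and none of the blood, epidermis, nerve and cartilage markers was measured. The part of the falling matrix markers in the rise of the calcium genes was not tested, and in whole tissue a change in the share of fibres and a change of RNA per fibre cannot be told apart. In the breed difference of the change from d 60 to birth 3 of the 10 matrix markers passed, all lower, where 7.94% of all features passed lower. The median of the list was -0.81, and the part of these markers in the PLN difference was not tested.

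Across the 25 fetal arrays ATP2A1 followed CASQ1 most closely of the other members (Pearson's r = 0.867), and ATP2A2 followed PLN (r = 0.676). PLN was nearly as close to ATP2A1 (r = 0.662). The value was 0.534 for the 2 pumps, 0.399 for PLN with CASQ1 and 0.306 for ATP2A2 with CASQ1. These values describe arrays that share samples and stages. Among the 975 named genes fitted, the most alike to ATP2A1 were ASB12 (r = 0.961), MB (0.931), PYGM (0.925), MYH1 (0.92) and GPD1 (0.915), which include myoglobin and muscle glycogen phosphorylase. For CASQ1 they were PYGM (0.923), ENO3 (0.898), TPM2 (0.891), TMOD4 (0.88) and ATP2A1 itself. The nearest to ATP2A2 were MCFD2 (0.927), MAP3K15 (0.917), TPM3 (0.882), YBX1 (0.881) and TUBA4A (0.878), where TPM3 is the slow fibre tropomyosin gene. The nearest to PLN were DLAT (0.909), NNT (0.867), HADHB (0.864), MLF1 (0.858) and LPL (0.845), of which DLAT, NNT and HADHB encode mitochondrial enzymes.

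In the older crossbred cattle the breeds were compared directly on 12 arrays, 4 at each time with the dyes balanced, and the times on 8 arrays. A model of the same form with 6 groups was fitted to 17253 features. ATP2A1 was higher in the Piedmontese crosses. Piedmontese over Wagyu read 1.16, 0.87, 0.42 and 0.31 at T1, 0.08, 0.01, 0.43 and 0.19 at T2, and 0.66, 0.45, 0.71 and 0.41 at T3, so that all 12 arrays were above 0 and those of T2 were the lowest as a group. The mean over the times was 0.47 on the log2 scale, or 1.39-fold (SE 0.07, adjusted p = 0.00329), and 1 of the 4 genes passed in a comparison where 4.2% of all features did. At T1 it was 0.67 (adjusted p = 0.0163, 0.753% of features), at T2 0.20 (adjusted p = 0.379, 3.28%) and at T3 0.54 (adjusted p = 0.048, 0.539%). Of the 38 ATP2A1 elements 28 passed upward for the mean and none downward, from 0.01 to 1.49.

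The call on ATP2A1 depends on what counts as a replicate. At each time arrays 1 and 2, and arrays 3 and 4, carried opposite dyes, and over all features the ratios of Cy5 over Cy3 of these pairs correlated below 0, from -0.593 to -0.116, whereas the other pairs of opposite dye correlated from 0.114 to 0.577. The labels do not say that these arrays shared RNA. With each such pair averaged as 1 replicate, the value stayed at 0.47 but its adjusted p was 0.343, and 0 features passed where 725 had. The call was also lost with array number as a block (0.45, adjusted p = 0.137) and without array number 1 (adjusted p = 0.0817) or 2 (adjusted p = 0.179), and the T3 call in 19 of 24 fits with arrays left out.

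**Figure D5:**
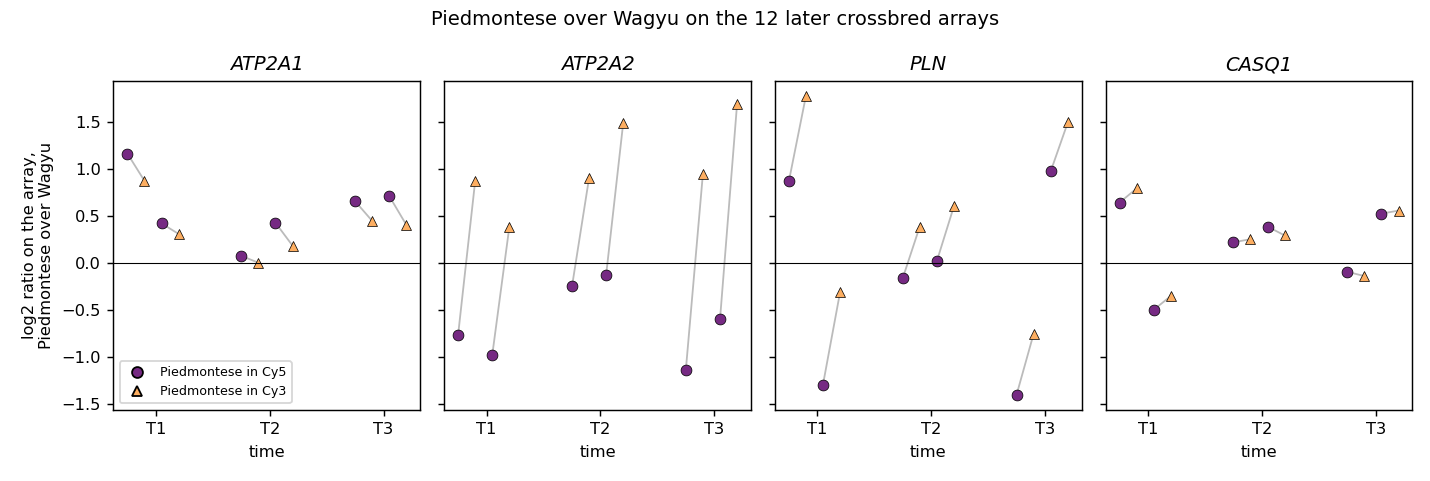
Centred log2 ratio of Piedmontese over Wagyu (y axis) on the 12 breed arrays of older crossbred cattle at T1, T2 and T3 (x axis), with circles for Piedmontese in Cy5, triangles for Piedmontese in Cy3, and grey lines joining arrays 1 and 2 and arrays 3 and 4. For ATP2A1 all 12 arrays lie above 0, for ATP2A2 the sign follows the dye, and for PLN the joined arrays lie on the same side of 0 at T1 and T3.

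The other 3 genes did not pass in the mean of the breed comparison. ATP2A2 read -0.76, 0.88, -0.97 and 0.39 at T1, -0.25, 0.90, -0.12 and 1.49 at T2, and -1.13, 0.95, -0.60 and 1.69 at T3, so that its sign followed the dye on all 12 arrays. Its dye term was -0.74 (SE 0.09, adjusted p = 2.33e-05), and on 1 array that carried a single RNA in both dyes it read -0.34. With the dye removed by the model, ATP2A2 was 0.20 (adjusted p = 0.278).

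PLN read 0.87, 1.78, -1.29 and -0.31 at T1, -0.16, 0.39, 0.02 and 0.60 at T2, and -1.40, -0.75, 0.98 and 1.49 at T3. At T1 arrays 1 and 2 were above 0 and 3 and 4 below it, and at T3 the reverse held, so that the arrays of these times shared no side. CASQ1 showed the same split with less spread, at 0.64, 0.79, -0.50 and -0.35 at T1, 0.22, 0.26, 0.39 and 0.30 at T2, and -0.09, -0.14, 0.53 and 0.56 at T3. The means were 0.19 for PLN (95% interval -0.34 to 0.71, adjusted p = 0.697) and 0.22 for CASQ1 (95% interval -0.02 to 0.46, adjusted p = 0.267), and 0 of 24 tested CASQ1 elements passed. Of the 10 other calcium handling genes 0 passed, against 1 at an unadjusted p under 0.05. In the same comparison, where 4.2% of all features passed, 2 of 12 skeletal muscle markers were higher in Piedmontese crosses. There 4 of 10 fibroblast and matrix markers were lower, and the part of all these markers in the ATP2A1 value was not tested.

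Over the times, ATP2A2 rose from T1 to T2 by 0.76 on the log2 scale, or 1.69-fold (SE 0.19, adjusted p = 0.0235), as 1 of the 4 genes in a comparison where 6.86% of features passed. Its arrays of T2 over T1 read 1.75 and 1.40 for Piedmontese crosses and 0.34 and -0.46 for Wagyu crosses, and with the dye term removed 1.01, 0.65, 1.08 and 0.28, all above 0. The rise was called in the Piedmontese crosses (1.01, adjusted p = 0.0148, 5.38% of features), beside 0.50 in Wagyu crosses (adjusted p = 0.191), and the test of the difference did not pass (adjusted p = 0.343). It missed the threshold without a dye term (adjusted p = 0.342), with arrays brought to the same spread (adjusted p = 0.0647) and in 4 of 24 fits with arrays left out. The change of the pumps from T1 to T2 differed by breed: ATP2A1 minus ATP2A2, Piedmontese minus Wagyu, was -0.97 (adjusted p = 0.0323), in a comparison where 1.13% of features passed. Neither pump's own breed difference passed, at -0.47 for ATP2A1 (adjusted p = 0.147) and 0.50 for ATP2A2. The pair was not refitted with array number as a block, with opposite-dye arrays averaged or with arrays left out.

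ATP2A1 was the 1 gene of 4 that passed from T2 to T3, where 10.7% of features passed, with a log2 ratio of -0.41 that lay at the threshold (adjusted p = 0.0495). Its arrays of T3 over T2 read -0.28 and -0.44 for Piedmontese and -0.51 and -0.39 for Wagyu crosses, all below 0. The call was lost in 18 of 24 fits with arrays left out. In Wagyu crosses the value was -0.58 (adjusted p = 0.0208, 9.67% of features) and in Piedmontese crosses -0.24 (adjusted p = 0.407), with no test of their difference past the threshold (0.34, adjusted p = 0.504). CASQ1 read -0.45 and -0.75 for Piedmontese and -0.13 and -0.81 for Wagyu crosses, and its mean of -0.54 did not pass (adjusted p = 0.0889). From T1 to T3 limma passed 0 of 4 genes and 0 at an unadjusted p under 0.05, with -0.19 for ATP2A1, 0.47 for ATP2A2, 0.29 for PLN and -0.43 for CASQ1, where 0.759% of features passed.

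Across the 20 arrays ATP2A1 and CASQ1 were again alike (r = 0.668), with r = 0.658 for PLN and CASQ1 and r = 0.326 for the pumps. ATP2A2 was closer to CASQ1 (r = 0.494) than to PLN (r = 0.415), and ATP2A1 with PLN had r = 0.36. The named genes nearest to CASQ1 were ACTA1 (r = 0.962), ACTA2 (0.935), LOC784938 (0.931), MYL1 (0.93) and GALNT16 (0.926), with both actin genes among them. Those nearest to ATP2A1 were TBC1D23 (0.949), LPL (0.87), AKT1 (0.834), NFE2L1 (0.812) and PDE4DIP (0.809). Those nearest to ATP2A2 were MRFAP1L1 (0.815), OAZ2 (0.779), ATP5F1B (0.774), ATP5F1A (0.763) and CMYA5 (0.75), of which 2 encode subunits of the mitochondrial ATP synthase. Those nearest to PLN were LAMA4 (0.93), TMEM43 (0.921), FUNDC2 (0.906), IVNS1ABP (0.906) and KLHL41 (0.894).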

How the data were processed

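The authors scanned and read the two-colour arrays with GenePix instruments and deposited log2 ratios, likely of Cy5 over Cy3, not centred (array medians -0.482 to 0.465 fetal and -0.316 to 0.141 later). The methods state for the fetal arrays that each dye's intensities were edited, background corrected and log2 transformed, with the editing criteria given by citation; whether the deposited ratios passed through the same steps is not stated there. Not used were 24 columns of other experiments and all 77 columns of a second platform. Symbols came from the platform annotation: 4490 elements carried 1 gene name and 188 several, and the latter were not named. Elements without a single name entered as features of their own. Ratios at the upper limit of 16.61 (24 to 216 values per fetal array, 30 to 80 per later array) were set missing, arrays were median-centred, elements of a gene were averaged, and a feature was kept if at least 20 of 25 or 16 of 20 arrays had a value.

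Group terms and a dye intercept were fitted with limma 3.58.1 in R 4.3.3 (17 and 14 residual degrees of freedom), and p-values were adjusted by Benjamini-Hochberg over all features of a contrast. On simulated data the test recovered large added changes, which does not show how it treats smaller ones. Figures were drawn with matplotlib 3.10.9. Centring, scaling, the limit, the dye term, array weights, the mean over elements, the filter, robust regression, array number as a block and arrays left out were varied. No pairs of arrays held identical values. The genes named were the 4 members, every measured gene of the calcium list, up to 4 genes of each other list and the 5 genes most correlated with each member. The members and lists were chosen with earlier results of these data known. Both pumps and CASQ1 are also in lists the study drew from these samples. Sequences and positions of the genes were not used here.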

Additional observations from a re-analysis of the deposited data

Results flagged for a closer look

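In Wagyu-sired fetuses the highest of the 4 arrays of d 195 over d 135 stood apart for CASQ1, at 1.13 with the dye term removed; of 16 groups of 4 arrays looked at, this was the 1 that stood out by Dixon's test, and chance alone gives about 1 in 20. The change of PLN from d 60 to birth differed between the sire breeds, Piedmontese minus Wagyu, by -1.66 (adjusted p = 0.0225). The breed difference of that change was also unequal between genes, with ATP2A1 minus PLN at 1.58 and PLN minus CASQ1 at -1.53. In the older crosses the change from T1 to T2 was unequal between the pumps by breed, with ATP2A1 minus ATP2A2 at -0.975 for Piedmontese minus Wagyu. These differences between genes were not refitted under other settings or with arrays left out.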

How the results depend on the processing

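For 62 results, 643 of 706 values under another setting kept their direction and side of the threshold, 28 lost the call, 15 gained it and 20 changed sign, and the cause was not tested; of 1673 values with arrays left out, 1544 were kept, 78 lost the call, 13 gained it and 38 changed sign. The direction of the rise from d 60 to birth turned for no member. Without centring the median of all features moved by -0.156 for birth over d 60, by 0.103 for its breed difference and by 0.162 for the breeds at birth. Then the breed difference in that rise was 0.028 for ATP2A1, and Piedmontese over Wagyu at birth was 0.10 for ATP2A2 and 0.055 for CASQ1, none of which passed. With arrays scaled to the same spread (MAD) these were 0.11, 0.21 and 0.018, and under quantile normalisation 0.085, 0.21 and 0.0096; ATP2A2 from d 60 to birth was 0.92 and 0.93 and lost its call, and PLN from T1 to T2 was -0.026 under quantile normalisation. With ceiling ratios kept, CASQ1 at birth was 0.045. Array weights gave PLN at birth -1.34 with a call, PLN from T1 to T2 -0.053 and PLN between the older breeds -0.042. Robust regression gave calls for the breeds at birth of ATP2A1 (-0.32) and PLN (-0.83) and for the breed difference in the rise of ATP2A2 (-0.99). The breed difference of CASQ1 from T1 to T3, 0.01, was -0.018 with ceiling ratios kept, -0.0064 without a dye term, -0.056 with array weights, -0.032 with the median over elements and -0.012 in robust regression. Averaging the opposite-dye breed arrays and leaving out single arrays were chosen after seeing the data; the first left ATP2A1 between the older breeds at 0.47 without a call.

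Same-numbered arrays had r from -0.662 to 0.658 on the fetal and -0.591 to 0.616 on the later arrays, so not every pair deviated together. The numbers were not taken to pair the samples, but this range cannot exclude it. Neighbouring arrays of the ring carry their shared group in opposite dyes, so a shared animal would tend to make r negative. Fetal arrays of the same number that shared a group had a median r of -0.179, with 5 of 24 over 0.1. Those of different numbers that shared a group had 0.0747, with 24 of 54. Whether the fetal numbers pair the samples was not tested. On the later arrays same-numbered arrays with no group in common did tend to deviate together, with a median r of 0.22 and 18 of 28 over 0.1, against -0.208 and 26 of 68 for different numbers. With array number as a replicate block, the mean breed value of the older crosses was 0.45 for ATP2A1 without a call, -0.00256 for ATP2A2 and -0.33 for PLN, and ATP2A1 also lost its calls at T1, at T3 and from T2 to T3; no other call of a member changed with the block.

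With arrays left out, values ranged as follows. From d 60 to birth, ATP2A2 went from 0.85 to 1.91, and the breed difference from -0.28 to 0.068 for ATP2A1, from -2.02 to -1.15 for PLN and from -0.51 to 0.055 for CASQ1. Piedmontese over Wagyu at birth went from -0.45 to 0.24 for ATP2A2, from -1.62 to -0.78 for PLN and from -0.38 to 0.13 for CASQ1, and at d 60 from -0.058 to 0.18 for CASQ1. PLN from d 135 to d 195 went from -0.083 to 0.46. In the older crosses the mean breed value of ATP2A1 went from 0.43 to 0.51. The breed difference from T1 to T3 went from -0.24 to 0.00228 for ATP2A1, from -0.052 to 0.50 for ATP2A2, from -0.99 to 0.57 for PLN and from -0.26 to 0.32 for CASQ1. PLN went from -0.35 to 0.61 for T1 to T2, from -0.046 to 0.37 for T2 to T3 and from -0.14 to 0.72 for T1 to T3, and CASQ1 from -0.042 to 0.22 for T1 to T2.

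The number of features past the threshold also moved. For the breed difference from d 60 to birth it was 2198, against 798 without centring, 1534 with the block, 6961 in robust regression and 0 to 3926 with arrays left out. For the breeds at birth it was 46, against 0 without centring and 4712 in robust regression, and for d 195 over d 135 it was 2804, against 1789 with the block and 6193 in robust regression. For the older breeds it was 725, against 0 with opposite-dye arrays averaged, 2394 in robust regression and 14 to 1332 with arrays left out. For T2 over T1 it was 1184, with 739 to 2720 under other settings and 0 to 1314 with arrays left out, for T3 over T2 1847, with 1123 to 3687 and 0 to 1919, and for T3 over T1 131, with 51 to 540 and 0 to 128.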
